A study of Mus musculus with 20 samples.

Results

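The step from crypt stem cell to progenitor was compared between mice with and without Itgb7, the gene of the integrin beta 7 subunit. For each of 10 mice, transcript levels in sorted GFP-low cells were set against those in GFP-high cells of the same mouse. All 20 libraries of the series entered the comparison, 2 from each mouse, with the 11296 uniquely named genes that were measured in both populations. The groups were 5 Itgb7+/+ Lgr5-GFP mice (WT, numbered 1, 3, 6, 7 and 8) and 5 Itgb7-/- Lgr5-GFP mice (KO, numbered 2, 3, 4, 5 and 6). All were C57BL/6J mice aged 8 weeks and all carried Lgr5-GFP, a reporter of the stem cell gene Lgr5, whose construct the labels do not describe. Crypt epithelium of the small intestine was sorted for 7AAD-, CD45-, CD31-, TER119- and EpCAM+ cells, of which the labels call the GFP-high fraction stem cells and the GFP-low fraction transit-amplifying (TA) cells. A WT and a KO mouse with the same number are different animals and were not paired.

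Lgr5+ stem cells at the crypt base divide and are kept in that state by Wnt signals, many of them from neighbouring Paneth cells. Their daughters, the TA cells, lose Lgr5, divide a few more times and become absorptive enterocytes or, where Notch signalling is low, secretory cells such as goblet, enteroendocrine, tuft and Paneth cells. Integrin beta 7 pairs with the alpha E or alpha 4 subunit on lymphocytes of the gut, and the alpha E form binds E-cadherin on epithelial cells. The question was whether its loss changes how gene expression shifts between the 2 epithelial populations.

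Below, "step" means the GFP-low minus GFP-high difference in log2 CPM (counts scaled to a common library size) within a mouse, and "gap" means the step of KO mice minus that of WT mice as fitted to the counts by edgeR, with its standard error (SE). The fitted gap can differ slightly from the difference between the mean steps of the mice. Calls and p are those of edgeR unless another tool is named. A positive gap therefore means that a gene went up more, or down less, on the way from GFP-high to GFP-low cells in KO mice. For each gene list, the members named were those of a fixed panel and the 2 of smallest p for the gap, unless stated otherwise. The latter were chosen by their result, so their gaps and any separation of the mice are not typical of their list. Total counts per library ran from 20900404 to 27838392. Epithelial markers were high in all libraries, with Epcam, Cdh1, Krt8, Krt18 and Vil1 between 195 and 6007 CPM. None of 4 B and plasma cell or 2 erythroid markers was held by both tables, nor were 6 of 8 T cell markers, while Gzma and Gzmb stayed at or below 22.1 CPM. Present in both tables were 3 of 5 myeloid markers, Lyz2, Cd68 and Itgam, at 1.20 to 65.8 CPM, and 1 of 6 markers of stroma and endothelium, Vim, at 1.55 to 32.8 CPM. All 6 Paneth cell markers were present. Genes of the Paneth list took 2.17 to 8.20% of the counts of GFP-high cells in WT mice and 2.59 to 6.22% in KO mice. Of the counts of GFP-low cells they took 7.45 to 24.9% in WT and 3.40 to 14.4% in KO mice. Both fractions therefore held RNA of a mature secretory cell in all 10 mice, with the largest shares in GFP-low cells of WT mice 3 (24.9%) and 8 (24.0%). In sorted bulk samples, a different number of cells of a type and a different amount of RNA per cell cannot be told apart. Both libraries of WT mice 7 and 8 lay apart from all others on the second principal component, which carried 6.56% of the variance. Summed counts of the Y-linked Ddx3y, Eif2s3y and Kdm5d were above 100 in both libraries of WT mice 1, 7 and 8 and KO mice 3, 4 and 5. They were not above 100 in any library of WT mice 3 and 6 and KO mice 2 and 6. Whether the step differs with sex was not tested. Itgb7 was in neither table, so the genotype could not be checked on its own transcript (gene at chr15:102215995-102231944, GRCm38).

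Stem cell genes fell and differentiation genes rose along the same axis in both genotypes, and edgeR called no gene as differing in its step, while DESeq2 called 5. Among WT mice, 3087 genes (27.3%) rose and 3141 (27.8%) fell from GFP-high to GFP-low cells, 55.1% of all genes, by edgeR's quasi-likelihood test at an adjusted p under 0.05. Among KO mice 3205 (28.4%) rose and 3234 (28.6%) fell, 57.0% of those tested. Counts of list members that rose or fell, given below, are to be read beside these shares. Scaled by library totals alone, WT mice had 1488 rises against 5943 falls and KO mice 1856 against 4971, and the median step of all genes was then -0.38 and -0.27. That scaling moved the median gap of all genes from 0.0016 to 0.12. Gaps given below with library totals alone are to be read against this shift. In both genotypes 2661 genes rose and 2584 fell, while 2 rose in WT and fell in KO and 5 did the reverse. A further 2163 genes were called in 1 genotype only. Of these, 381 had an unadjusted p under 0.05 for the gap and 0 an adjusted p under 0.05, so that passing in a single genotype did not show a difference between genotypes.

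**Figure D1:**
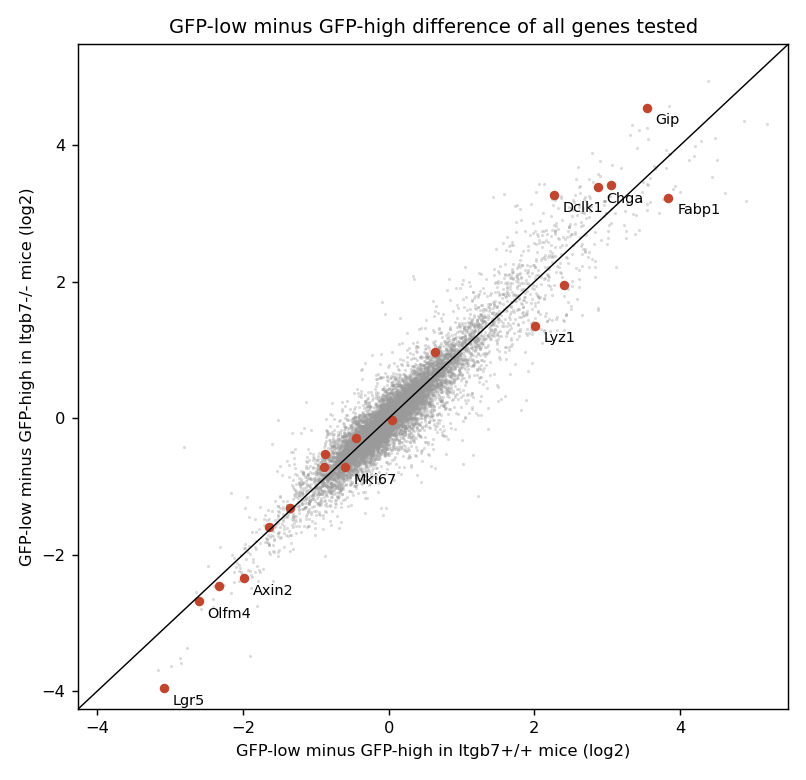
Step (GFP-low minus GFP-high, log2) of each of the 11296 genes in WT mice (horizontal axis) and KO mice (vertical axis), as fitted by edgeR; red points are the stem, cycling, lineage and antigen presentation genes described in the text, and the black line marks equal steps. Lgr5, at -3.09 in WT and -3.96 in KO, sits below the line at the lower left, and Gip, at 3.54 and 4.55, above it at the upper right.

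For the gap itself, edgeR called 0 of 11296 genes at an adjusted p under 0.05 (percent called 0), and the smallest adjusted p was 0.648. At an unadjusted p under 0.05 there were 777 genes, 6.88% of those tested. DESeq2 with the same mouse term called 5 genes, each at an adjusted p of 0.0496, and limma on the within-mouse steps called 0 with 796 at an unadjusted p under 0.05. The median SE of a gap was 0.17 and the median absolute gap 0.13 on the log2 scale. For 87.2% of genes the 95% interval of the gap lay between -1 and 1, within 2-fold either way. An absolute gap over 1 was measured for 91 genes (0.806%), none of which passed with edgeR and 1 of which, Chst4, passed with DESeq2.

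The size of the whole step overlapped between the genotypes. The SD of the step over all genes was 0.75, 0.82, 0.81, 0.81 and 0.93 in WT mice 1, 3, 6, 7 and 8. In KO mice 2, 3, 4, 5 and 6 it was 0.78, 0.86, 0.88, 0.85 and 0.84. All KO values lay within the WT range, and the means of 0.82 ± 0.06 and 0.84 ± 0.04 (SD, n = 5 each) gave p = 0.611 in a two-sided exact permutation test. The median absolute step, 0.39 ± 0.04 in WT and 0.40 ± 0.03 in KO (SD, n = 5 each), gave an exact permutation p of 0.730. With 5 mice against 5 the smallest p this test can give is 0.00794. Adjusted over these 2 measures and the step of Lgr5, p was 0.730 for both.

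Lgr5, the receptor for R-spondins that amplifies Wnt signals and whose reporter defined the sort, fell steeply in every mouse (gene at chr10:115450311-115587780, GRCm38). Its level in GFP-high cells was 85.9, 93.7, 132, 111 and 85.4 CPM in WT mice 1, 3, 6, 7 and 8 and 91, 116, 117, 105 and 98 CPM in KO mice 2, 3, 4, 5 and 6. In GFP-low cells of the same mice it was 19.3, 19, 14.5, 5.02 and 6.82 CPM in WT and 5.42, 9.3, 9.54, 4.13 and 6.6 CPM in KO. The GFP-high levels of both genotypes covered much the same range, while in GFP-low cells WT mice 1, 3 and 6 were higher than all KO mice and WT mice 7 and 8 lay among them. The steps were -2.15, -2.30, -3.18, -4.45 and -3.63 in WT and -4.05, -3.63, -3.60, -4.65 and -3.88 in KO, and the groups overlapped. The fitted step was -3.09 ± 0.26 in WT and -3.96 ± 0.27 in KO, a gap of -0.87 ± 0.35 with a 95% interval of -1.63 to -0.12. The unadjusted edgeR p was 0.0265 and the adjusted p 0.699, and the exact permutation p over mice was 0.135 (0.405 after adjustment). Without WT mice 7 and 8 the gap was -1.41.

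The other stem cell genes of the panel had smaller gaps. Ascl2, a Wnt-responsive transcription factor required by the stem cells, had steps of -2.17, -2.06, -2.72, -2.01 and -2.66 in WT mice and -2.12, -2.89, -2.60, -2.11 and -2.52 in KO mice, which interleaved, for a gap of -0.13 ± 0.20 and an adjusted edgeR p of 0.932. Olfm4, a secreted glycoprotein abundant in crypt base cells, stepped by -1.94, -2.31, -2.78, -2.64 and -3.38 in WT and -2.60, -2.25, -2.78, -3.15 and -2.64 in KO, and its gap of -0.07 ± 0.23 became 0.041 with library totals alone. Smoc2, a matricellular protein of the stem cell signature, had a gap of 0.05 ± 0.14. Axin2, a negative feedback regulator of Wnt signalling, stepped by -1.71, -1.53, -2.06, -1.98 and -2.68 in WT and -2.16, -2.26, -2.65, -2.12 and -2.54 in KO. WT mice 1 and 3 fell least and WT mouse 8 most, with all KO mice between them, for a gap of -0.36 ± 0.18 and an adjusted p of 0.722.

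Over the whole stem cell list, all 30 genes fell in WT and all 30 in KO mice, with median steps of -1.75 and -1.79. The gap was negative for 23 of the 30 and its median was -0.17, against 0.00 over all genes tested, of which 50.3% had a positive gap. With library totals alone, a scaling that moved the median gap of all genes to 0.12, the median of the stem cell list was -0.06. No member passed for the gap, and 6 of 30 had an unadjusted p under 0.05, beside 6.88% of all genes. By mouse, the median step of the list was -1.33, -1.48, -1.87, -1.75 and -2.08 in WT mice 1, 3, 6, 7 and 8, and -1.92, -1.74, -1.82, -1.91 and -1.86 in KO mice 2, 3, 4, 5 and 6. WT mice 1 and 3 had the shallowest fall and WT mouse 8 the steepest, so the KO range lay wholly inside the WT range. The median gap was -0.09 without WT mouse 3, -0.24 without KO mouse 5 and -0.30 without WT mice 7 and 8. Gkn3, a gastrokine found in Lgr5+ cells, had a gap of -0.60 ± 0.23 (adjusted p 0.691). Among 27 genes of Wnt signalling, 8 gaps were positive and the median of -0.11 moved to 0.0045 with library totals alone. Cd44, a surface receptor and Wnt target, had a gap of -0.42 ± 0.15 (adjusted p 0.67), and Sox9, a transcription factor of crypt base and secretory cells, one of -0.47 ± 0.17 (adjusted p 0.67).

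**Figure D2:**
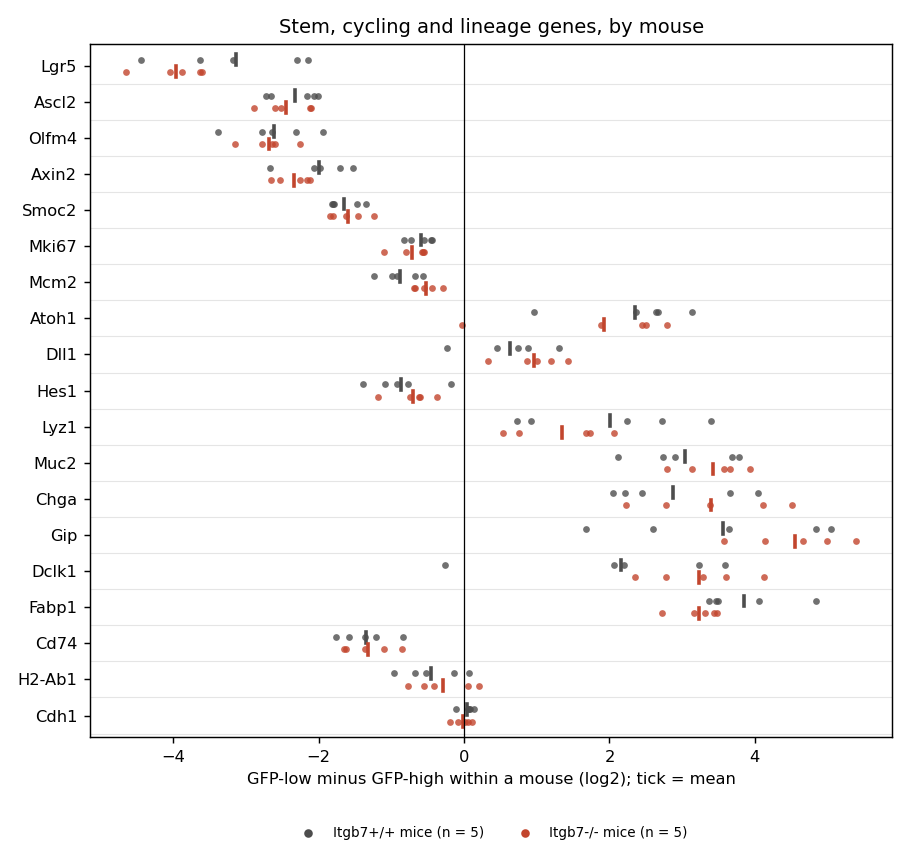
Step within each mouse (log2, horizontal axis) for 19 genes of stem cells, the cell cycle, fate choice, mature lineages and antigen presentation; each point is 1 mouse, grey for WT and red for KO, and the tick is the group mean. WT and KO points overlap for every gene shown, including Lgr5 at the top.

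Most cell cycle genes fell in both genotypes, while 27.8% of all genes fell in WT and 28.6% in KO mice. Mki67, a marker of cycling cells, fell by a similar amount, with steps of -0.82, -0.55, -0.44, -0.45 and -0.73 in WT and -0.57, -0.58, -0.80, -1.11 and -0.55 in KO and a gap of -0.12 ± 0.13. Mcm2, a subunit of the replicative helicase, stepped by -0.68, -1.23, -0.92, -0.57 and -0.99 in WT and -0.67, -0.29, -0.55, -0.69 and -0.44 in KO. KO mouse 3 had the smallest fall and WT mouse 3 the largest, and WT mice 1 and 7 lay among the KO mice. Its gap was 0.35 ± 0.13, with an adjusted edgeR p of 0.691. Of 46 S phase genes, 40 fell and 1 rose in WT, 34 fell and 1 rose in KO, and 41 had a positive gap, with a median of 0.16. At an unadjusted p under 0.05 there were 6 of 46, beside 6.88% of all genes. Mcm5, another helicase subunit, had a gap of 0.38 ± 0.12, and Prim2, the large primase subunit, one of 0.36 ± 0.12, with the steps of all 5 KO mice above those of all WT mice. Median steps of the list were -0.63, -0.80, -0.51, -0.47 and -0.86 in WT and -0.45, -0.51, -0.58, -0.46 and -0.39 in KO, so that WT mice 3 and 8 fell most, WT mice 6 and 7 lay among the KO mice, and without WT mice 3 and 8 the median gap was 0.07. Of 58 genes of G2 and mitosis, 54 fell in WT and 55 fell and 1 rose in KO, and 16 gaps were positive, with a median of -0.07 that became 0.04 with library totals alone. Pimreg, a mitotic regulator, had a gap of -0.94 ± 0.32 and Cenpa, the centromeric histone H3 variant, one of 0.71 ± 0.26, in opposite directions and neither past the test.

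Genes of the choice between absorptive and secretory fate were then examined. Hes1, the Notch target that represses secretory fate, stepped by -1.08, -0.18, -1.39, -0.77 and -0.93 in WT and -0.61, -1.18, -0.61, -0.37 and -0.75 in KO, a gap of 0.18 ± 0.25. Atoh1, the transcription factor that sets secretory fate, stepped by 0.96, 2.37, 2.66, 2.64 and 3.14 in WT and 2.50, 2.80, 1.89, -0.04 and 2.44 in KO. All mice but KO mouse 5 had a positive step. The gap of -0.45 ± 0.49 became 0.048 without that mouse. Dll1, a Notch ligand of secretory progenitors, had a gap of 0.33 ± 0.25, and Neurog3, the factor that starts the enteroendocrine programme, one of 1.02 ± 0.49 (adjusted p 0.719). Without WT mouse 3 these gaps were 0.12 and 0.54, and without WT mice 7 and 8 they were 0.65 and 1.80. Among 15 secretory progenitor genes 14 had a positive gap, Atoh1 being the exception, with a median of 0.42 (0.79 without WT mice 7 and 8), and none had an unadjusted p under 0.05. Dll4, another ligand of Notch, had a gap of 0.51 ± 0.25. Of 16 genes of the Notch pathway 10 gaps were positive, with a median of 0.19 that ranged from 0.05 without WT mouse 3 to 0.19 without KO mouse 2. The median step of the same list went the other way, at 0.09 in WT and 0.03 in KO mice. Only 1 of the 16 had an unadjusted edgeR p under 0.05, beside 6.88% of all genes. Adam10, the protease that cleaves Notch receptors, had a gap of -0.37 ± 0.17, and the receptor Notch2 one of -0.45 ± 0.21.

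Enteroendocrine genes, the hormone-producing lineage, had the highest median gap of any list. All 18 measured members rose in WT and all 18 in KO mice, all 18 had a positive gap, and the median gap was 0.86. None passed the test and 3 of 18 had an unadjusted p under 0.05, beside 6.88% of all genes. The list's median step was 1.86, 1.56, 2.03, 3.52 and 3.48 in WT mice 1, 3, 6, 7 and 8, and 2.55, 3.73, 3.82, 2.62 and 3.21 in KO mice 2, 3, 4, 5 and 6. WT mice 1, 3 and 6 were below all KO mice and WT mice 7 and 8 were among the highest of all. Leaving out 1 mouse moved the median gap between 0.52, without WT mouse 3, and 1.15, without WT mouse 7, and without WT mice 7 and 8 it was 1.61.

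Isl1, a transcription factor of enteroendocrine cells, had the largest gap of the list. In GFP-high cells it was at 7.41, 6.33, 6.13, 3.03 and 2.79 CPM in WT mice and 1.24, 2.52, 2.15, 1.87 and 2.1 CPM in KO mice. The highest KO mouse, at 2.52 CPM, lay just below the lowest WT mouse, at 2.79 CPM. The KO minus WT difference there was -1.37 ± 0.30 with an adjusted edgeR p of 0.168. How many of all genes separate in GFP-high cells was not counted. In GFP-low cells Isl1 was at 27.3, 13.1, 12.9, 24.9 and 25.5 CPM in WT and 16.5, 30.6, 26.2, 11.4 and 17.7 CPM in KO, and there the groups overlapped. Its steps were 1.87, 1.03, 1.07, 3.01 and 3.15 in WT and 3.64, 3.56, 3.55, 2.56 and 3.02 in KO, for a gap of 1.30 ± 0.40, an unadjusted edgeR p of 0.00557 and an adjusted p of 0.67. Chga, a protein of hormone granules, stepped by 2.44, 2.21, 2.05, 3.65 and 4.04 in WT and 2.78, 4.51, 4.11, 2.23 and 3.39 in KO, a gap of 0.53 ± 0.44. For Gip, the incretin made by K cells, the gap was 1.01 ± 0.55, and for Pyy, a peptide hormone of L cells, 1.29 ± 0.55, with adjusted p of 0.742 and 0.699. The gap of Gip was 0.51 without WT mouse 1 and 1.94 without WT mice 7 and 8, that of Pyy 0.83 without WT mouse 3, and that of Chga 0.25 without KO mouse 3 and 1.16 without WT mice 7 and 8. The KO minus WT difference had a median over the 18 genes of -0.98 in GFP-high and -0.03 in GFP-low cells. No member passed the edgeR test in either population. Levels in GFP-high cells of KO mice were low for Isl1 and for Pyy, at 1.13 to 2.01 CPM, against 15.5 to 39.3 CPM for Chga.

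When WT mice 7 and 8 were left out, a choice made after their libraries were seen to lie apart, edgeR called 3 genes. Isl1 was one, with a gap of 1.98 ± 0.28 and an adjusted p of 0.0270. Scgn, a calcium-binding protein of endocrine cells, had a gap of 1.78 ± 0.23 and an adjusted p of 0.0143. Apoa4, an apolipoprotein of enterocytes, had a gap of -1.25 ± 0.16 and an adjusted p of 0.0143. Scgn and Apoa4 were picked out after these values were seen. With all mice, Scgn stepped by 1.70, 1.04, 0.91, 3.62 and 3.49 in WT mice and 2.68, 3.23, 2.96, 3.08 and 2.87 in KO mice. The 2 mice left out had its highest steps, and the gap was 0.90 ± 0.47 with them (adjusted p 0.722). Apoa4 stepped by 4.30, 3.82, 3.91, 2.34 and 2.81 in WT and 2.46, 2.80, 3.05, 2.72 and 2.79 in KO. There WT mouse 7 lay below all KO mice and WT mouse 8 among them, the other WT mice being above them all, and the gap with them was -0.68 ± 0.29 (adjusted p 0.704).

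Goblet cell genes followed with smaller values. Of 27 members 26 rose in WT and 27 in KO, 25 had a positive gap, and the median gap was 0.42 (0.25 without WT mouse 3, 0.79 without WT mice 7 and 8). This list shares members, Atoh1 among them, with the secretory progenitor list. At an unadjusted p under 0.05 there were 7 of 27, beside 6.88% of all genes. Muc2, the main secreted mucin, stepped by 2.73, 2.12, 2.90, 3.68 and 3.78 in WT and 3.13, 3.93, 3.65, 2.80 and 3.58 in KO, which overlapped, for a gap of 0.37 ± 0.29, or 0.14 without WT mouse 3 and 0.84 without WT mice 7 and 8. Tff3, a trefoil peptide secreted with mucin, had a gap of 0.65 ± 0.25, and Fcgbp, a mucin-associated protein, one of 0.78 ± 0.30, each with an adjusted p of 0.691. The genotype difference had a median of -0.48 in GFP-high and 0.03 in GFP-low cells over this list. No member passed the edgeR test in either population.

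Tuft cell genes, of a chemosensory lineage, had a median gap of 0.43 over 14 members, 10 of them positive and 4 negative. Of the 14, 2 had an unadjusted edgeR p under 0.05, beside 6.88% of all genes. The lowest gap of the list was -0.56 for Pou2f3, which was looked up after the result was seen. Dclk1, a kinase that marks tuft cells, stepped by 2.06, -0.26, 3.23, 3.59 and 2.19 in WT and 3.29, 3.60, 4.12, 2.35 and 2.78 in KO. WT mouse 3 was the lowest and had the only negative step. The gap of Dclk1 had a 95% interval of -0.20 to 2.19, and the gaps of Alox5ap, which serves leukotriene synthesis, and Avil, an actin-binding protein of tuft cells, were 1.82 ± 0.62 and 0.86 ± 0.40, the latter 0.52 without WT mouse 3. Without that mouse the list's median gap was 0.02, and without WT mice 7 and 8 it was 0.78.

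Paneth cell genes had the lowest median gap. Of 31 members 29 rose in each genotype, 28 had a negative gap, and the median was -0.69. Only 2 members, Lyz2 with a negative and Kcnn4 with a positive gap, had an unadjusted edgeR p under 0.05. That share was near the 6.88% of all genes. Lyz1, lysozyme of Paneth granules, was at 10518, 2963, 3306, 2090 and 7437 CPM in GFP-high cells of WT mice and 2564, 3932, 6531, 6540 and 4891 CPM in those of KO mice. In GFP-low cells it was at 17433, 31190, 6279, 13733 and 35004 CPM in WT and 3711, 16387, 20839, 10989 and 16315 CPM in KO. WT mice 3 and 8 were the highest of the GFP-low libraries and KO mouse 2 the lowest. Steps of Lyz1 were 0.73, 3.40, 0.93, 2.72 and 2.23 in WT and 0.53, 2.06, 1.67, 0.75 and 1.74 in KO, for a gap of -0.65 ± 0.46 and an adjusted edgeR p of 0.812, or -0.30 without WT mouse 3 and -0.08 without WT mice 3 and 8. The list's share of all counts went up from GFP-high to GFP-low cells by 3.33, 22.2, 2.78, 10.6 and 16.9 percentage points in WT mice 1, 3, 6, 7 and 8. In KO mice 2, 3, 4, 5 and 6 it went up by 0.817, 8.09, 8.16, 4.25 and 9.15 points. Without WT mouse 3 the median gap was -0.26 and without WT mice 3 and 8 it was -0.02, while it was -1.03 without WT mouse 1 and -0.29 without WT mice 7 and 8, so that its size rested on which WT mice were included. Lyz2, a related lysozyme also made by myeloid cells, had a gap of -0.80 ± 0.34, and Kcnn4, a potassium channel, one of 0.40 ± 0.15. Defensin genes are near-identical and their expected counts are uncertain one by one.

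Absorptive enterocyte genes rose in both genotypes, 31 of 33 in WT and 30 in KO, and 30 of 33 gaps were negative with a median of -0.27. At an unadjusted p under 0.05 there were 8 of 33, beside 6.88% of all genes, and none passed the adjusted test. Without WT mice 7 and 8 the median was -0.49. Fabp1, a cytosolic fatty acid binding protein, stepped by 4.05, 4.85, 3.49, 3.36 and 3.47 in WT and 2.73, 3.32, 3.48, 3.17 and 3.44 in KO. WT mice 1, 3 and 6 were the 3 highest and KO mouse 2 the lowest, for a gap of -0.61 ± 0.24 and an adjusted p of 0.699, or -0.36 without WT mouse 3. Ggt1, a gamma-glutamyl transferase of the brush border, was at 33.3, 24.2, 29.3, 14.6 and 13.5 CPM in GFP-low cells of WT mice and 19.5, 11.5, 18.2, 9.02 and 10.3 CPM in those of KO mice, from levels of 0.220 to 2.65 CPM in GFP-high cells. Its steps of 4.87, 6.32, 5.92, 3.67 and 3.73 in WT and 2.84, 2.82, 3.31, 2.49 and 4.56 in KO overlapped through WT mice 7 and 8 and KO mouse 6. The gap of Ggt1 was -1.71 ± 0.50 (adjusted p 0.67), or -2.58 without WT mice 7 and 8. Slc26a3, an apical chloride and bicarbonate exchanger, stepped by 2.05, 2.75, 1.90, 1.85 and 1.82 in WT and 1.40, 1.78, 1.28, 0.79 and 1.25 in KO. Here every KO mouse was below every WT mouse, WT mouse 3 stood well above the rest, and the gap was -0.78 ± 0.20 (adjusted p 0.648).

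**Figure D3:**
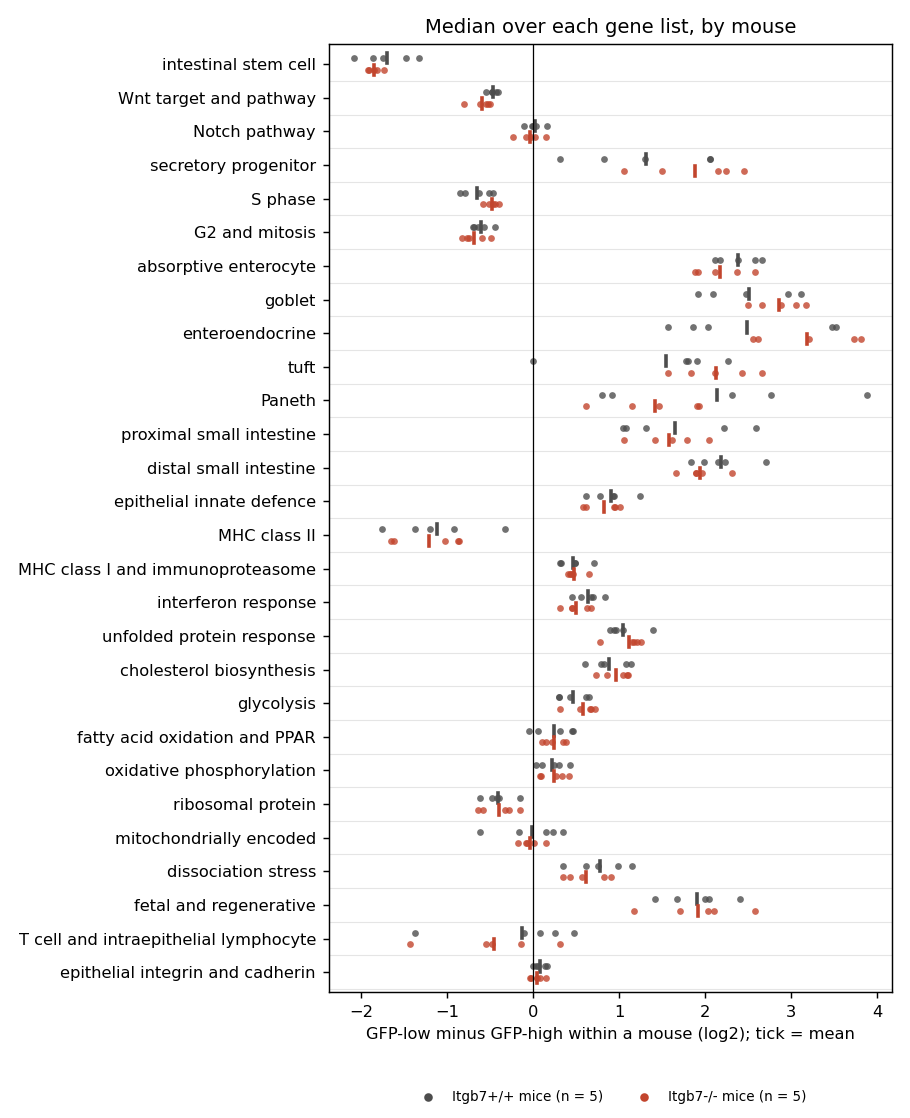
Median step over the measured members of each of 28 gene lists (log2, horizontal axis), 1 point per mouse, grey for WT and red for KO, with ticks at group means. WT and KO points overlap in all 28 lists, and the WT points of the enteroendocrine, Paneth and tuft lists spread more widely than the KO points.

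Over the 28 lists with at least 5 measured members, 15 had a median gap below 0 and 13 above, and 6 had an absolute median over 0.25. The per-mouse median steps of KO and WT mice overlapped in 28 of 28 lists. With library totals alone the medians of the lists of G2 and mitosis, MHC class I, MHC class II, interferon response, fatty acid oxidation, lymphocyte, mitochondrially encoded and proximal genes turned from below to above 0, between 0.04 and 0.08. The median gap of all genes was 0.12 with that scaling, so these lists still lay below it. The SD over mice of the median step was 0.94 in WT and 0.60 in KO for the enteroendocrine list and 1.30 and 0.55 for the Paneth list, which were not compared by a test. The lists of B and plasma cells, myeloid cells, stroma and endothelium, erythroid cells and sex chromosome genes had 0, 4, 1, 0 and 3 measured members and are not described.

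Antigen presentation and immune genes came next because integrin beta 7 acts on lymphocytes that lie against this epithelium. Cd74, the invariant chain of MHC class II, stepped by -1.21, -0.84, -1.37, -1.58 and -1.76 in WT and -1.37, -1.65, -1.10, -1.62 and -0.86 in KO. The ranges were nearly the same and the gap was 0.03 ± 0.18. H2-Ab1, an MHC class II beta chain, had a gap of 0.15 ± 0.21. All 7 measured class II genes fell in WT and 6 of 7 in KO, with a median gap of -0.02 that became 0.08 with library totals alone. The genotype difference of the same list had a median of 0.94 in GFP-high and 1.04 in GFP-low cells and no member passed the edgeR test in either population. The 2 medians were close to each other, as were the steps of the 2 genotypes. H2-DMb1, which helps load class II molecules, had a gap of -0.17 ± 0.21. Class I and immunoproteasome genes had a median gap of -0.03 over 16 members, with -0.54 ± 0.24 for H2-T23 and 0.26 ± 0.15 for H2-K1. Interferon response genes had a median gap of -0.08 over 30 members, 13 of them positive. Irf8, an interferon regulatory factor, and Irgm2, an immunity-related GTPase, had gaps of 0.28 ± 0.11 and -0.65 ± 0.33.

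Defence genes of the epithelium had a median gap of -0.21, with 3 of 18 positive, or -0.096 without WT mouse 3 and -0.06 without WT mice 3 and 8. Nfkbia, the NF-kappa-B inhibitor alpha, ran against its list with steps of 0.74, 0.27, 0.61, 0.96 and 0.79 in WT and 2.41, 0.65, 1.40, 2.15 and 1.12 in KO. KO mice 2 and 5 were far above the others and KO mouse 3 lay within the WT range, for a gap of 0.87 ± 0.27 (adjusted p 0.67). Cxcl16, a membrane-bound chemokine, had a gap of -0.47 ± 0.26. Lymphocyte genes were split evenly, 4 positive and 4 negative of 8. Nkg7, a protein of cytotoxic granules, and Ccl5, a chemokine of T cells, had gaps of -0.86 ± 0.38 and -0.40 ± 0.39, from mean log2 levels of 1.40 and 4.22 CPM. The summed level of the lymphocyte list in WT mice was 15.2 to 65.8 CPM in GFP-high and 11.5 to 69.7 CPM in GFP-low cells. In KO mice it was 23.4 to 103 CPM and 19.8 to 100.1 CPM. The part of these transcripts in the gaps was not tested.

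Epithelial adhesion genes include the E-cadherin that the alpha E beta 7 integrin binds. Cdh1 stepped by 0.05, 0.08, 0.14, -0.11 and 0.07 in WT and 0.11, -0.09, 0.01, -0.20 and 0.06 in KO, so that all steps lay between -0.20 and 0.14. Its gap was -0.07 ± 0.10, with a 95% interval of -0.28 to 0.15, or 0.049 with library totals alone. Itga6, a laminin-binding integrin subunit, had a gap of 0.25 ± 0.11 and Jup, plakoglobin of cell junctions, one of 0.22 ± 0.13. The list's median was 0.01 over 16 genes, 9 of them positive, and 0.12 with library totals alone. With that scaling the median gap of all genes was also 0.12.

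Housekeeping programmes gave median gaps close to 0. Ribosomal protein genes (76) had a median of 0.02, oxidative phosphorylation genes (55) 0.0038, cholesterol synthesis genes (26) 0.05, glycolysis genes (19) 0.07, genes of the unfolded protein response (28) 0.07 and mitochondrially encoded genes (13) -0.04. Single members lay further out. Pgam1, a glycolytic mutase, stepped by 0.37, 0.25, 0.66, 0.64 and 0.30 in WT and 1.30, 0.80, 0.91, 0.75 and 0.76 in KO, all KO mice above all WT mice, for a gap of 0.46 ± 0.13, while Aldoa, the aldolase, had one of 0.23 ± 0.13. Cox6a1 and Cox8a, both subunits of cytochrome c oxidase, had gaps of 0.79 ± 0.23 and 0.96 ± 0.36, with KO mouse 2 highest for each. Manf and Herpud1, which serve protein folding and breakdown in the endoplasmic reticulum, had gaps of 0.48 ± 0.16 and 0.48 ± 0.18. Dhcr7 and Mvd, enzymes of cholesterol synthesis, had gaps of 0.37 ± 0.14 and 0.32 ± 0.12. The 31 genes of fatty acid oxidation had a median gap of -0.07. Cyp4a10, a fatty acid hydroxylase at a mean log2 level of 0.70 CPM, had a gap of -1.53 ± 0.58. Rpl27 and Rpl10 had gaps of 0.30 ± 0.11 and -0.23 ± 0.13, and mt-Nd4 and mt-Co1 of -0.16 ± 0.17 and 0.15 ± 0.18.

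Regional and injury-related lists were also near 0 or small. Genes of the proximal and distal small intestine had median gaps of -0.06 and -0.22 over 12 and 11 members, the first turning to 0.05 with library totals alone and the second -0.09 without WT mouse 8. Of the 11 distal genes 8 had a negative gap, while Osr2, a zinc finger factor, ran against its list with 0.36 ± 0.16. Dissociation stress genes, which respond to tissue handling, had a median of -0.14 with 6 of 30 positive, which was -0.06 without WT mouse 8 and 0.05 without WT mice 7 and 8. The fetal and regenerative genes had a median of 0.06 with 4 of 8 positive. Gadd45b and Klf6, both early response genes, had gaps of 0.50 ± 0.15 and -0.41 ± 0.20. S100a6, a calcium-binding protein, had one of 0.35 ± 0.22, and Ccnd2, cyclin D2, one of 0.17 ± 0.12.

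The 20 genes of smallest p are described next, although none passed the adjusted test of edgeR. The 5 genes that DESeq2 called were among them. They had absolute gaps of 0.48 to 1.80 and unadjusted edgeR p of 0.000124 to 0.00140, and all had the same adjusted p of 0.648. In 15 the gap was positive and in 5 negative. Steps of KO and WT mice did not overlap for 15 of them, 10 above and 5 below. Among all genes, 127 (1.12%) did not overlap, 61 (0.540%) with KO above and 66 (0.584%) with KO below. Choosing by p makes separation likely, so this count is a description.

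Spry2, a feedback inhibitor of receptor tyrosine kinase signalling, came first (gene at chr14:105891947-105896819, GRCm38). It was at 24.6, 30.6, 33.3, 24.8 and 26.6 CPM in GFP-high and 24.8, 42.8, 37.6, 28.3 and 27 CPM in GFP-low cells of WT mice 1, 3, 6, 7 and 8. In KO mice 2, 3, 4, 5 and 6 it was at 43.5, 33.8, 40.2, 25 and 31.4 CPM in GFP-high and 33.9, 22.3, 30.4, 17.5 and 25 CPM in GFP-low cells. The level was thus equal or higher in GFP-low cells of each WT mouse and lower in those of each KO mouse, while levels within either population overlapped between genotypes. Steps were 0.01, 0.48, 0.18, 0.19 and 0.02 in WT and -0.36, -0.60, -0.40, -0.51 and -0.33 in KO, for a gap of -0.62 ± 0.12 with a 95% interval of -0.87 to -0.36. The unadjusted edgeR p was 0.000124, the adjusted p 0.648, and the adjusted p with DESeq2 0.0496. Spry2 fell in KO mice (step -0.44 ± 0.09) and did not pass in WT mice (step 0.18 ± 0.09). Leaving out 1 mouse kept its gap between -0.66 and -0.54.

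Uri1, a prefoldin-like co-chaperone, had lower steps in KO mice, at -1.08, -0.75, -0.91, -1.09 and -0.67, than in WT mice, at -0.30, -0.13, -0.56, -0.19 and -0.40, without overlap, and a gap of -0.58 ± 0.13. Gas7, a growth arrest gene that binds actin, fell in both genotypes, with steps of -1.30, -0.50, -2.46, -2.39 and -2.73 in WT and -3.75, -3.44, -2.78, -3.55 and -3.55 in KO and a gap of -1.59 ± 0.41. WT mouse 3 fell least, and the KO mice all fell further than any WT mouse. Nus1, a subunit of cis-prenyltransferase, and the unnamed gene model Gm42467 had gaps of -0.48 ± 0.12 and -0.99 ± 0.22. Both rose in WT, and Nus1 fell in KO.

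Pitx1, a homeobox transcription factor, had the largest gap of the 20. In GFP-high cells it was at 32.7, 53.8, 85.9, 51.6 and 75.8 CPM in WT and 8.31, 31.2, 6.37, 20.6 and 43.4 CPM in KO mice, with KO mice 2 and 4 the lowest of all. In GFP-low cells it was at 44.5, 27, 68.5, 72.3 and 68.8 CPM in WT and 80.1, 48.9, 24.9, 82.4 and 78.4 CPM in KO, which overlapped widely. Its steps were 0.45, -0.99, -0.33, 0.48 and -0.14 in WT and 3.26, 0.65, 1.95, 2.00 and 0.85 in KO, so that it rose in KO mice and did not pass in WT mice. The gap was 1.80 ± 0.41, between 1.44 without KO mouse 2 and 2.09 without KO mouse 3. Egfl7, a secreted EGF-like protein known from endothelium, was low in all libraries, at 2.14 to 4.69 CPM in GFP-high cells. In GFP-low cells it was at 0.72 to 1.81 CPM in WT and 2.02 to 3.21 CPM in KO mice. It fell in WT mice, with steps of -1.75, -1.68, -0.94, -0.72 and -2.42, and stayed near 0 in KO mice, at 0.15, -0.08, -0.22, -0.20 and 0.22, for a gap of 1.49 ± 0.34.

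**Figure D4:**
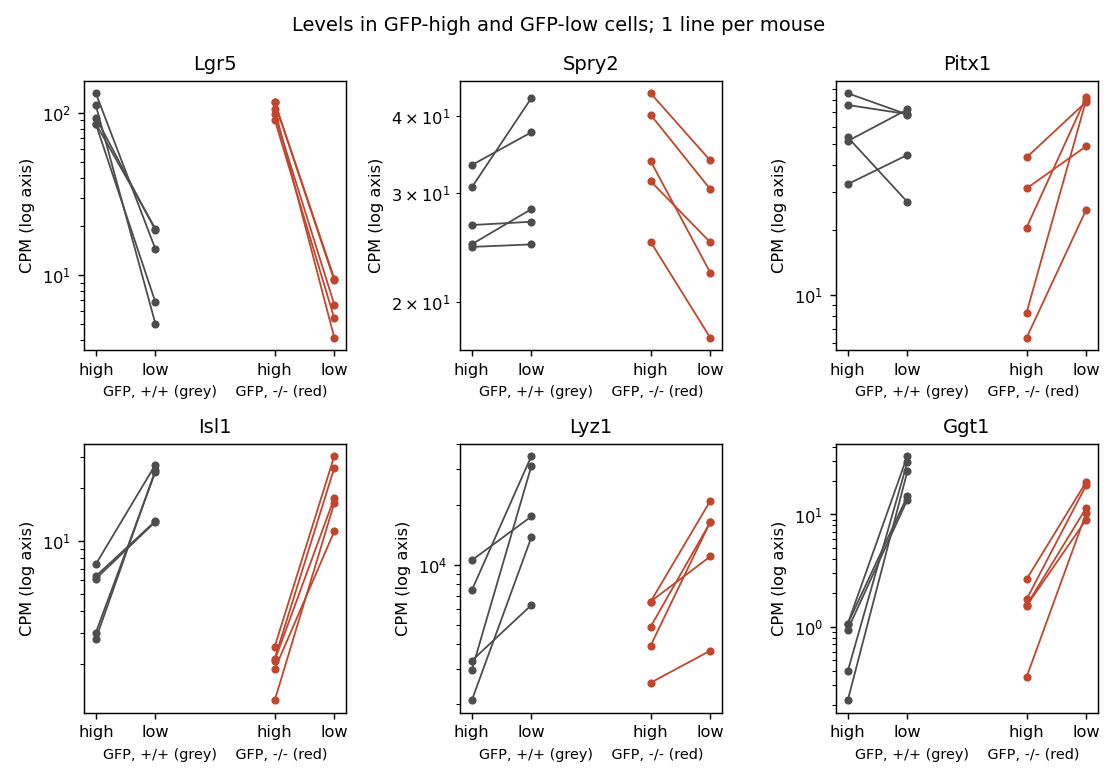
Levels (CPM, log axis) in GFP-high and GFP-low cells, 1 line per mouse, grey for WT and red for KO, for Lgr5, Spry2, Pitx1, Isl1, Lyz1 and Ggt1. Spry2 lines run flat or up in WT and down in KO. Isl1 starts lower in KO GFP-high cells, where the genotype difference did not pass the edgeR test, and ends in the same range.

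Other genes with a positive gap followed. Psmb4, a proteasome subunit, stepped by 0.38, 0.33, 0.49, 0.40 and 0.28 in WT and 1.56, 0.67, 0.90, 1.42 and 0.77 in KO, with KO mice 2 and 5 far above the rest, for a gap of 0.69 ± 0.16. Pigt, a subunit of the GPI transamidase, stepped by 0.55, 0.04, 0.74, 0.80 and 0.32 in WT and 1.86, 1.09, 0.95, 1.66 and 1.01 in KO, again with KO mice 2 and 5 highest, for a gap of 0.82 ± 0.19. Nfkbib, the NF-kappa-B inhibitor beta, had a gap of 0.89 ± 0.21, with KO mice 3 and 6 just above WT mouse 7. These genes rose in both genotypes. Chst4, a sulfotransferase that modifies glycans, and Bace2, an aspartyl protease, also rose in both, with gaps of 1.10 ± 0.27 and 0.94 ± 0.23 where KO mice 2 and 5, and KO mouse 5, lay below WT mouse 8. DESeq2 called Psmb4, Pigt, Nfkbib and Chst4 beside Spry2.

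Ddit4, which restrains mTORC1, fell in WT mice and rose in KO mice, with steps of 0.23, -0.52, -0.60, -0.58 and -0.43 and 0.59, 0.24, 0.71, 0.14 and 0.13. WT mouse 1 was the only WT mouse above 0, and the gap was 0.74 ± 0.17. Cic, a transcriptional repressor downstream of receptor tyrosine kinases, also fell in WT and rose in KO, at -0.47, -0.32, -0.22, -0.11 and -0.40 and 0.46, 0.06, 0.04, 0.43 and 0.12, for a gap of 0.53 ± 0.13. Rpa1, a single-strand DNA binding protein of replication, fell in WT (step -0.54 ± 0.09) and did not pass in KO (step -0.03 ± 0.09), for a gap of 0.51 ± 0.13. Gins4, a subunit of the replicative helicase, had a gap of 0.58 ± 0.15, with KO mouse 2 well above the other KO mice. N4bp3, Fam57a, Thop1, a metallopeptidase, and 2310009B15Rik had gaps of 0.81, 0.79, 1.05 and 1.58, each called as a rise in KO mice and not in WT mice. The last was low, at 0.60 to 2.81 CPM in GFP-high cells of KO mice, and its gap had an SE of 0.39.

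**Figure D5:**
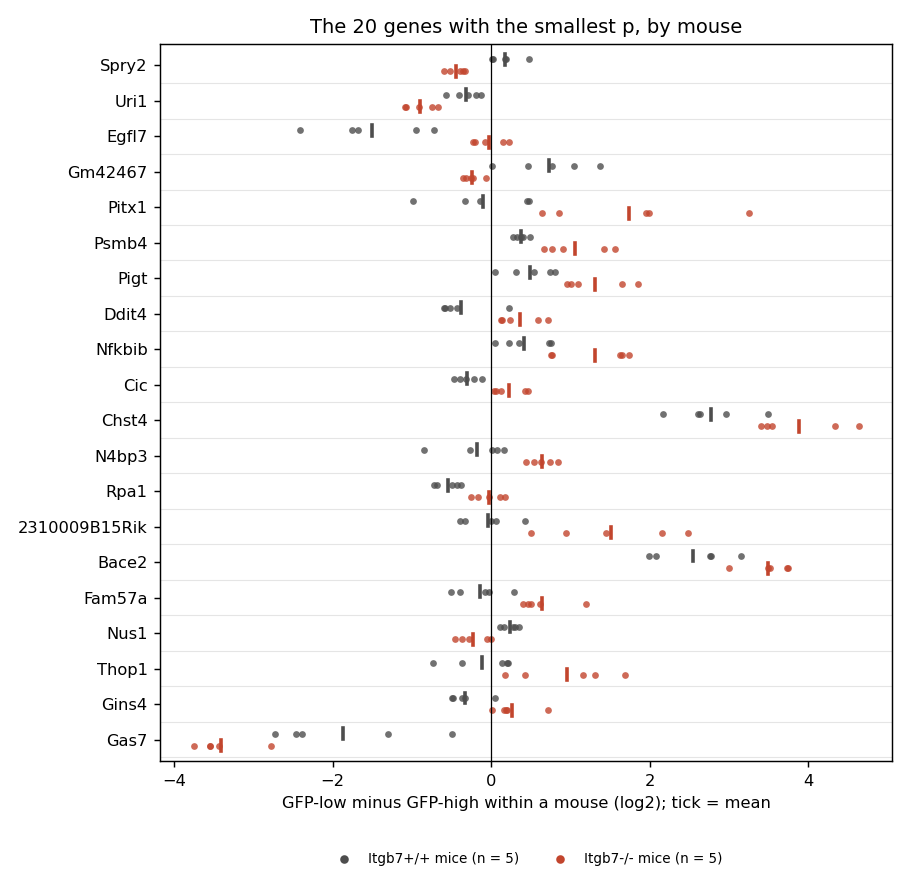
Step within each mouse (log2, horizontal axis) for the 20 genes with the smallest unadjusted p for the gap, in order of p from the top; each point is 1 mouse, grey for WT and red for KO, with ticks at group means. Red and grey points separate for 15 of the 20 genes, and KO mouse 2 gives the rightmost red point of 7 of the 15 genes with a positive gap.

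The levels behind these gaps were set side by side within each population. Because the genes were chosen by the gap, which is the genotype difference in GFP-low minus that in GFP-high cells, opposite signs in the 2 populations follow largely from the choice. For the 15 genes with a positive gap the KO minus WT difference in GFP-high cells was below 0 in 15, from -1.44 to -0.14. In GFP-low cells it was above 0 in 13, from -0.06 to 1.07. The 5 with a negative gap were above 0 in GFP-high and below 0 in GFP-low cells. No adjusted p within either population was below 0.158 for these 20 genes. KO mouse 2 had the highest step in 7 of the 15 and WT mouse 3 the lowest in 8. Tested across all genes within a population, KO and WT differed in 0 of 11295 genes in GFP-high cells (percent called 0) and in 1 of 11295 (0.00885%) in GFP-low cells. That gene, Arhgef10, looked up after the result was seen, differed by -2.30 ± 0.21 in GFP-low and -1.55 ± 0.34 in GFP-high cells, and its gap was -0.75 ± 0.42 (adjusted p 0.748). DESeq2 called 140 and 11 genes in these 2 comparisons.

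Genes whose step went in opposite directions in the 2 genotypes were few. The step was positive in all 5 KO and negative in all 5 WT mice for 3 genes (0.0266%), Cic, Ddb1 and Exosc4. It was negative in all KO and positive in all WT mice for 5 (0.0443%), Acacb, Epb41l4a, Gm42467, Spry2 and Tiprl. Of these, Ddb1, Exosc4, Acacb, Epb41l4a and Tiprl were picked out after their values were seen. Epb41l4a, a band 4.1 family protein, stepped by 0.25, 0.53, 0.45, 0.53 and 0.87 in WT and -0.29, -0.88, -0.10, -0.30 and -0.22 in KO, for a gap of -0.91 ± 0.27. Acacb, the acetyl-CoA carboxylase of the mitochondrial surface, had a gap of -0.58 ± 0.24, and Exosc4, an exosome subunit, one of 0.32 ± 0.09. For Ddb1, a subunit of a ubiquitin ligase, and Tiprl, a phosphatase regulator, the gaps of 0.16 ± 0.09 and -0.23 ± 0.11 came with steps as small as 0.0012 and 0.0032. None of the 8 passed the adjusted test of edgeR, and Spry2 passed that of DESeq2.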

How the data were processed

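RNA was sequenced from GFP-high and GFP-low cells of 5 WT and 5 KO mice. For each population a table of expected counts was deposited by the authors, with 11746 (GFP-high) and 11779 (GFP-low) entries. RSEM, Bowtie2 and TopHat2 are named with build mm10, per the submitters' processing notes. Their versions, and what each did, are in no source used here. The lowest mean count of an entry was 17.0 and 16.8, so lower genes are not analysed here. Entries that shared a name (34 and 30) and uniquely named genes of 1 table only (415 and 450) were left out. The deposited expected counts were rounded (13.7% were not whole).

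The 11296 genes held by both tables were fitted in R 4.3.3 with edgeR 4.0.16 (quasi-likelihood, TMM, filterByExpr at a minimum count of 10, Benjamini-Hochberg adjustment over all genes). The model held a term for each mouse and 1 GFP-low term per genotype, and the gap was the difference of the latter. KO against WT was fitted within each population. Steps per mouse used log2 CPM with a prior count of 2. SE and 95% intervals came from the F statistic. The labels give both libraries of a mouse the same number, and their deviations from the group means correlated at 0.169 to 0.625, best with the own mouse in 10 of 10. No 2 libraries of a group agreed within counting noise (smallest chi-square per gene 19.4). Total counts were 20900404 to 27838392. The pipeline was tested on simulated data.

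Genes named were Itgb7 and Lgr5, the 20 of smallest p, the 2 of smallest p in each list and a fixed panel. Of the panel, Alpi was held by the GFP-low table only. Names altered to dates (12) were tested and not named, and 1 gene that the rule picked is not reported here. Members and lists were chosen with earlier results of these data known. Alternatives were no replicate block, DESeq2 1.42.0, limma 3.58.1, other scalings and filters, and leaving out each mouse; leaving out WT mice 7 and 8, or 3 and 8, was added after seeing the data. Gene positions are from GENCODE M21 (GRCm38, also called mm10).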

Additional observations from a re-analysis of the deposited data

Results flagged for a closer look

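In 9 of 182 groups of 5 mice examined among the genes described, 1 mouse lay far from the other 4, and chance alone gives about 1 in 20. WT mouse 1 had a step of 0.23 for Ddit4 while the other WT mice were at -0.60 to -0.43. WT mouse 3 had 2.75 for Slc26a3 (others 1.82 to 2.05), -0.28 for Ccnd2 (others 0.16 to 0.27) and -0.92 for Nkg7 (others 0.24 to 0.64). KO mouse 2 had 0.72 for Gins4 (others 0.0094 to 0.20), -0.51 for Prim2 (others -0.42 to -0.38), 1.26 for Alox5ap (others 3.42 to 4.04) and 0.80 for Dhcr7 (others 1.05 to 1.14). KO mouse 5 had 1.20 for Fam57a (others 0.40 to 0.61).

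For 3 named genes the step was of opposite sign in all mice of the 2 genotypes, with gaps of -0.62 for Spry2, -0.99 for Gm42467 and 0.53 for Cic. The test of the gap gave an adjusted edgeR p of 0.648 for each.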

How the results depend on the processing

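The edgeR filter removed none of the 11296 genes, so the fit with no filter repeated the main fit. The count of genes called for the gap was 0 in the edgeR fits with other scalings and without the replicate block. It was also 0 with a stricter filter (mean log2 CPM of at least 3), with limma and without each single mouse. It was 5 with DESeq2 and 3 without WT mice 7 and 8. Without the replicate block 353 genes (3.12%) had an unadjusted p under 0.05, against 777 with it, and the block changed no other call of a gap. That number was 494 without WT mice 3 and 8. KO against WT gave 140 calls in GFP-high and 11 in GFP-low cells with DESeq2, and 0 to 1 and 1 to 2 when 1 mouse was left out. With library totals alone the gaps of Olfm4 (0.041) and Cdh1 (0.049) changed sign, the median gap of the Wnt list was 0.0045 and of the adhesion list 0.12, and the KO minus WT difference in median absolute step was -0.067. The median gap of all genes was 0.12 with that scaling, above the gaps of Olfm4 and Cdh1. Without 1 mouse at a time the gap of Olfm4 ran from -0.27 to 0.094, of Cd74 from -0.085 to 0.16, of Smoc2 from -0.040 to 0.13 and of Atoh1 from -0.78 to 0.048. The median of the Notch list ran from 0.051 to 0.19 and of the Wnt list from -0.21 to -0.023. The difference in SD over genes ran from -0.00057 to 0.044, and in median absolute step from -0.0035 to 0.022. Smoc2 (-0.055) and Cd74 (-0.18) changed sign without WT mice 7 and 8, and mt-Co1 (-0.042) without WT mice 3 and 8. Without WT mice 7 and 8 the medians of the dissociation stress (0.051), glycolysis (-0.032), ribosomal (-0.083) and oxidative phosphorylation (-0.067) lists changed sign too, as did that of MHC class II (0.054) without WT mice 3 and 8. The cause was not tested. Genes with a mean count below 16.8 are not analysed here, so nothing is known of their steps.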
